A study of Homo sapiens with 18 samples.

Results

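The genes described are 39 genes of homologous recombination, the Fanconi anemia pathway and the choice between repair routes, taken by their symbols from the gene column of an RNA sequencing count table. The table lists 28277 genes, and each of the 39 symbols was found there and passed the filter on low counts. The cells were labelled OVCAR3, an ovarian cancer line, and all carried dCas9-KRAB, a catalytically dead Cas9 fused to a repressor domain that silences the promoter its guide RNA points to. There were 6 groups of 3 replicates, so 18 libraries in all: sgCtl, sgXIST7 and sgXIST9 cells in normoxia, and the same cells after 24 h in a chamber at 1% oxygen, called hypoxia. The control guide sgCtl points to the Gal4 promoter, and sgXIST7 and sgXIST9 point to different sites of the promoter of the long noncoding RNA XIST. Each guide was carried by clonal cells, so that a difference between guides and a difference between clones cannot be told apart. The study calls the replicates biological. The sources used here do not say whether they were separate cultures, and the p-values measure the spread between these libraries. Pairs of replicates differed by 3.98 to 78.9 in chi-square per gene, where counting noise alone gives about 1.

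Homologous recombination mends a broken chromosome by copying the intact sister, so it works mainly in S and G2 phase. The broken end is trimmed to a single-stranded tail, the tail is prepared by BRCA2 with the help of BRCA1, PALB2 and further strand exchange factors, and it then invades the sister. The Fanconi anemia pathway unhooks crosslinks between the DNA strands and hands the resulting break to the same machinery. Many of these genes are defective in hereditary ovarian cancer, and their loss sensitises ovarian tumors to PARP inhibitors.

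The libraries held between 11794375 and 24906936 counts each. In the control clone XIST had 4213 to 11209 counts in normoxia and 1589 to 5014 in hypoxia. The sgXIST7 libraries had 0 to 5 XIST counts, and the sgXIST9 libraries had 357 to 1009. At the same oxygen, the mean XIST level was 0.0335% (normoxia) and 0.0681% (hypoxia) of sgCtl in sgXIST7, and 9.39% and 13.6% in sgXIST9. The normoxic values rest on sgCtl replicate 2, without which they were 0.0563% and 15.8%. Of 10 epithelial and Mullerian markers of the line, EPCAM, KRT8, KRT18 and PAX8 were above 10 counts in every library, PAX8 at only 18 to 131 counts. MUC16, KRT7, KRT19, CDH1, SOX17 and WT1 were at 3 counts or fewer in at least 9 of 18 libraries. Among these, KRT7, CDH1 and SOX17 had at most 3 counts in any library and MUC16 at most 4. The label OVCAR3 thus rests on part of its markers and is not borne out by the rest. None of 10 markers of blood, vessel, liver and stromal cells was above 10 counts in every library, and their summed level went from 0.438 to 8.49 CPM (a gene's counts scaled to the size of its library, with TMM factors). COL1A1 reached 7.08 CPM, and none of the other markers was above 0.593 CPM in any library. In hypoxia the replicates lay farther apart than in normoxia: replicate 3 was within 1.2-fold of the mean of replicates 1 and 2 for 20, 23 and 22 of the 39 genes in sgCtl, sgXIST7 and sgXIST9, against 35, 39 and 39 in normoxia. RNA was taken from whole cultures, in which fewer cells of a kind and less RNA per cell cannot be told apart.

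In normoxic control cells all 39 genes were expressed. Levels between genes were compared as RPKM, the CPM divided by the gene's length in kilobases, computed here from the deposited counts and gene lengths. The median gene stood at 10.4 RPKM, against 5.69 for all genes tested, and 31 of the 39 were above that median. PARP1, which binds broken strands and builds poly(ADP-ribose) chains, was highest at 67.0 ± 2.46 RPKM (SD, n = 3). RBBP8 (CtIP), which starts the trimming of ends, followed at 41.6 ± 3.17 and FANCI, which with FANCD2 forms the clamp that is ubiquitinated at crosslinks, at 39.9 ± 0.0936. At the low end stood RAD51B, at 1.05 ± 0.167 RPKM, and RAD51D, at 2.94 ± 0.200, both strand exchange factors. BRCA1 (15.6 ± 0.345 RPKM) and BRCA2 (14.1 ± 0.336) were in the upper part of the order. Of 38 pairs of neighbours in this order, 28 overlapped in their replicates and 10 did not, among them PARP1 and RBBP8, and FANCI and EXO1.

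In each of the 3 clones most of these genes fell in hypoxia. They were tested with edgeR's quasi-likelihood test in a single fit of the 6 groups and called at a Benjamini-Hochberg adjusted p under 0.01, and fold changes are given as log2 ± standard error. In sgCtl cells 29 of 39 were called, all of them lower, where 18.8% of the 14938 genes tested were lower and 18.8% higher. In sgXIST7 cells 30 were called, again all lower, against 23.2% lower and 23.5% higher of all genes. In sgXIST9 cells 29 were lower and 1 higher, against 19.0% and 23.1%. On the log2 scale the 39 had a median fold change of -0.80 in sgCtl, -0.999 in sgXIST7 and -1.11 in sgXIST9, where the whole table had 0.02, 0.01 and 0.09.

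These 3 comparisons used separate libraries, but 1 fit with 1 estimate of the spread. Same-numbered hypoxic libraries of sgXIST9 and sgCtl also deviated together, at r of 0.197 to 0.566. In all 3 clones 26 of the 39 genes fell, where 12.2% of all genes did, and 20 of the 26 kept all 3 calls under every alternative other than the fold threshold. XRCC3, ATM, FANCE and PARP1 fell in 2 clones, and RAD51B and RAD50 fell in sgCtl cells. TP53BP1, which protects ends against trimming, rose in sgXIST9 cells. RAD52, NBN, FANCB, FANCL, SLX4 and ERCC4 were called in none of the 3, as were 38.7% of all genes. With a change of more than 2-fold asked for as well, 16, 19 and 21 of the 39 fell in sgCtl, sgXIST7 and sgXIST9, against 8.49%, 12.2% and 8.58% of all genes.

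**Figure D1:**
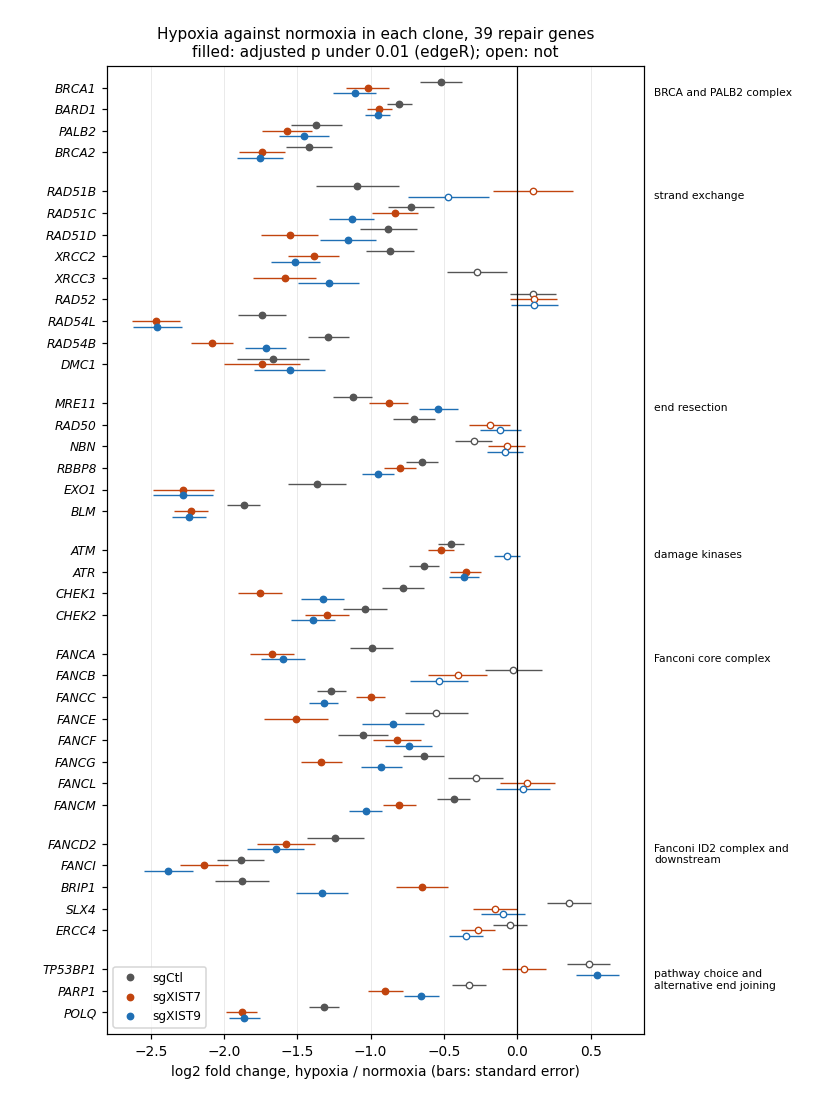
Log2 fold change of hypoxia against normoxia (x axis) for each of the 39 genes (rows, by role) in sgCtl, sgXIST7 and sgXIST9 cells, with standard errors as bars and filled points for an adjusted p under 0.01. Most filled points lie left of 0, with RAD54L, EXO1, BLM and FANCI farthest left, and the 6 genes with 3 open points are RAD52, NBN, FANCB, FANCL, SLX4 and ERCC4.

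All 4 genes of the BRCA and PALB2 group fell in all 3 clones. BRCA2, a mediator of strand exchange, was at 164, 162 and 157 CPM in sgCtl normoxia and at 51.9, 52.2 and 76.6 in hypoxia. In sgXIST7 it went from 233, 221 and 211 to 56.1, 59.3 and 83.9 CPM and in sgXIST9 from 172, 156 and 158 to 52.1, 44.2 and 47.4. No hypoxic library reached a normoxic one, and the log2 fold change was -1.42 ± 0.16, -1.74 ± 0.16 and -1.76 ± 0.16 (edgeR, adjusted p = 1.34e-06, 7.74e-08 and 9.89e-08). PALB2, the bridge between BRCA1 and BRCA2, changed by -1.37 ± 0.17, -1.57 ± 0.17 and -1.46 ± 0.17. BRCA1, an E3 ligase with BARD1, had the smallest change of the group in sgCtl cells. It stood at 112, 111 and 116 CPM in sgCtl normoxia and 76.8, 63.4 and 97.1 in hypoxia (-0.52 ± 0.15, adjusted p = 0.00668 by edgeR), and its adjusted p rose to between 0.0157 and 0.0403 when any sgCtl library other than hypoxia replicate 3 was left out. In the KD clones its change was -1.02 ± 0.15 and -1.11 ± 0.15, and its calls there held under every alternative other than the fold threshold. BARD1 changed by -0.80 ± 0.08, -0.94 ± 0.09 and -0.95 ± 0.09.

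Among the strand exchange factors, RAD54L, a motor that helps open the sister duplex, changed most. Its level was 30.3, 32.7 and 27.0 CPM in sgCtl normoxia and 9.19, 8.09 and 9.66 in hypoxia, 27.4, 37.0 and 28.9 and 6.40, 5.03 and 5.44 in sgXIST7, and 28.7, 33.1 and 28.7 and 5.56, 6.49 and 4.35 in sgXIST9. It was thus 3.35-fold lower in hypoxic sgCtl cells, 5.52-fold in sgXIST7 and 5.49-fold in sgXIST9 (edgeR, adjusted p = 2.46e-07, 3.77e-09 and 4.71e-09). RAD54B, its relative, changed by -1.29 ± 0.14, -2.08 ± 0.14 and -1.72 ± 0.14, but 63.7% of its exon bases are also exon of FSBP on the same strand, so its counts are uncertain. DMC1, the recombinase of meiosis, was low (at most 15 CPM) and changed by -1.67 ± 0.24, -1.74 ± 0.26 and -1.55 ± 0.24. RAD51C, RAD51D and XRCC2 fell in all 3 clones, with log2 fold changes from -1.55 (RAD51D in sgXIST7) to -0.73 (RAD51C in sgCtl).

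XRCC3 and RAD51B were called in some of the clones only. XRCC3 stood at 26.4, 28.0 and 29.8 CPM in sgCtl normoxia and 23.7, 26.1 and 19.7 in hypoxia, which was not called (-0.28 ± 0.21, adjusted p = 0.277 by edgeR). In sgXIST7 it went from 30.7, 28.8 and 31.4 to 12.9, 7.48 and 9.93 CPM and in sgXIST9 from 32, 33.6 and 32.4 to 13.4, 17.97 and 8.71, and both falls were called (-1.59 ± 0.21 and -1.28 ± 0.21). The difference from sgCtl in the hypoxia response was -1.31 ± 0.29 in sgXIST7 and -1.01 ± 0.29 in sgXIST9 and missed the threshold (edgeR, adjusted p = 0.0129 and 0.0538). RAD51B went from 8.45, 11.6 and 9.76 to 3.56, 3.08 and 7.62 CPM in sgCtl cells (-1.09 ± 0.28, adjusted p = 0.00389 by edgeR), with replicate 3 far above the other hypoxic libraries. Leaving out sgCtl hypoxia replicate 1 or 2 or sgCtl normoxia replicate 2 or 3 raised its adjusted p to between 0.0106 and 0.0263. In the KD clones RAD51B was not called, with means of 7.25 CPM in normoxia and 7.85 in hypoxia in sgXIST7, and 7.65 and 5.54 in sgXIST9. Its difference from sgCtl in the hypoxia response was not called in either KD clone. RAD52, which anneals single strands, stood at 0.11, 0.11 and 0.12, with overlapping groups and adjusted p from 0.562 to 0.601 by edgeR.

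Of the end resection genes, the long-range nuclease EXO1 and the helicase BLM moved most. EXO1 was at 95.6, 93.4 and 92.8 CPM in sgCtl normoxia and 37.9, 34.4 and 36.8 in hypoxia. In the KD clones it reached 19.8, 11.4 and 11.4 CPM (sgXIST7) and 21.0, 18.3 and 11.1 CPM (sgXIST9) in hypoxia, from 73.3, 63.6 and 70.7 and 83.0, 82.9 and 79.7 in normoxia. The fall was 2.58-fold, 4.85-fold and 4.85-fold in sgCtl, sgXIST7 and sgXIST9 (edgeR, adjusted p = 2.55e-05, 8.81e-08 and 1.08e-07). BLM, which also dissolves joint molecules, went from 50.3, 49.4 and 52.2 to 14.6, 12.8 and 14.4 CPM in sgCtl and was 3.64-fold, 4.68-fold and 4.72-fold lower in the 3 clones. RBBP8 fell by less, with -0.65 ± 0.11, -0.80 ± 0.11 and -0.95 ± 0.11.

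The 3 subunits of the MRN complex, which senses broken ends, had different values in hypoxia. MRE11, the nuclease, fell in all 3 clones (-1.12 ± 0.13, -0.88 ± 0.13 and -0.54 ± 0.13), the last call being lost without sgXIST9 hypoxia replicate 2 or normoxia replicate 1 (edgeR, adjusted p = 0.0169 and 0.0123). RAD50, the coiled-coil ATPase, fell in sgCtl cells, from 71.9, 87.0 and 70.7 to 40.1, 46.1 and 54.7 CPM (-0.71 ± 0.14, adjusted p = 5.44e-04 by edgeR). Its values in the KD clones were -0.19 ± 0.14 and -0.12 ± 0.14, not called. NBN, the adaptor that recruits ATM, stood at -0.30 ± 0.13, -0.07 ± 0.12 and -0.08 ± 0.12, not called in any clone.

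**Figure D2:**
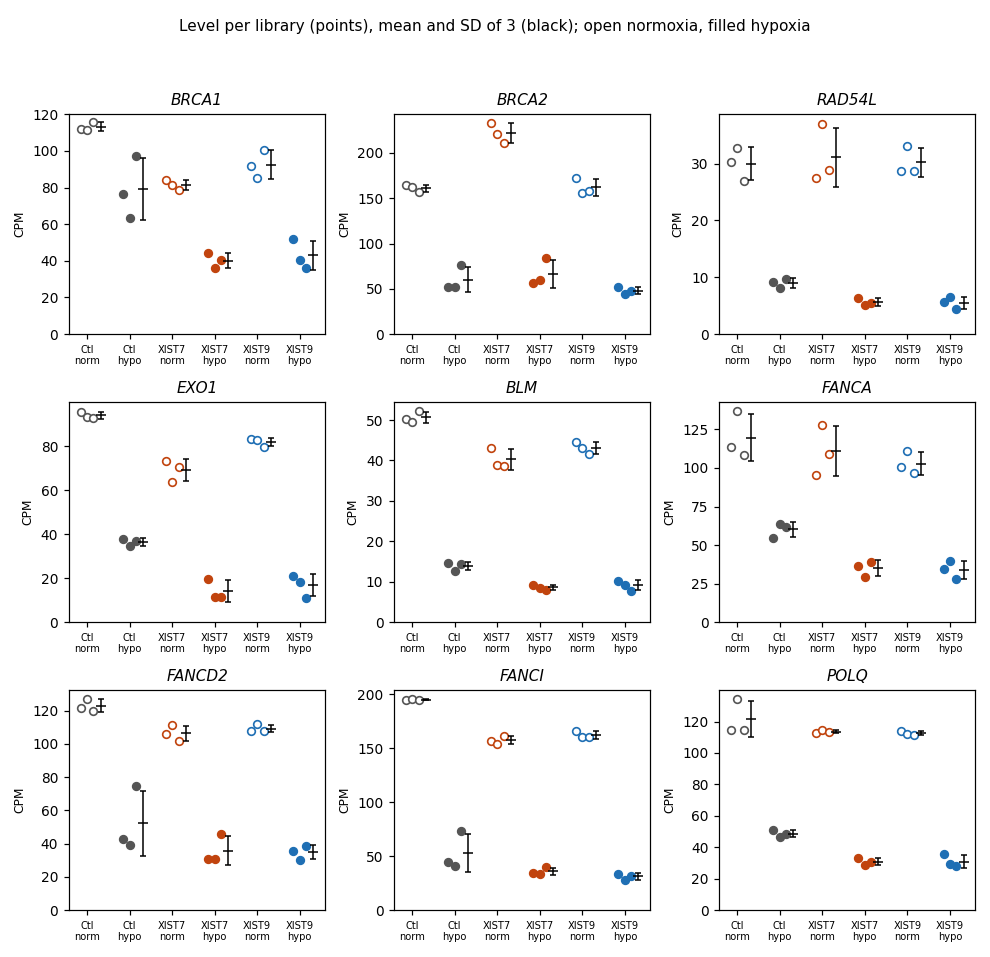
CPM (y axis, from 0) of 9 of the genes in each of the 18 libraries, as open points for normoxia and filled points for hypoxia, with the mean and SD of 3 in black. In each panel and each clone the 3 hypoxic libraries lie below the 3 normoxic ones, and replicate 3 of sgCtl hypoxia (rightmost point) lies above its fellows for BRCA1, BRCA2, FANCD2 and FANCI.

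All 4 damage kinases fell in sgCtl and sgXIST7 cells, and 3 of them in sgXIST9. CHEK1, the S phase checkpoint kinase, went from 42.2, 35.9 and 39.95 to 23.0, 21.9 and 23.9 CPM in sgCtl, from 33.0, 27.2 and 31.2 to 11.2, 7.20 and 8.72 in sgXIST7 and from 34.9, 33.7 and 33.6 to 13.5, 15.5 and 11.5 in sgXIST9. CHEK2, its partner downstream of ATM, changed by -1.04 ± 0.15, -1.30 ± 0.15 and -1.40 ± 0.15. ATR, which responds to stalled forks, changed by -0.64 ± 0.10, -0.35 ± 0.10 and -0.37 ± 0.10. ATR's calls in the KD clones were close to the threshold (edgeR, adjusted p = 0.00730 and 0.00632) and were lost without replicate 2 or 3 of hypoxia or any replicate of normoxia of the same clone, at 0.0135 to 0.0523. ATM, which responds to broken ends, fell in sgCtl and sgXIST7 (-0.45 ± 0.09 and -0.52 ± 0.09), and its level in sgXIST9 was 162, 149.6 and 164 CPM in normoxia and 154, 142 and 157 in hypoxia (-0.07 ± 0.09, adjusted p = 0.528 by edgeR).

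Of the 8 genes of the Fanconi core complex, the E3 ligase assembly that marks FANCD2 and FANCI, 5 fell in sgCtl and 6 in each KD clone. FANCA was at 114, 137 and 108 CPM in sgCtl normoxia and 54.8, 63.6 and 62.0 in hypoxia, and changed by -0.99 ± 0.15, -1.67 ± 0.15 and -1.60 ± 0.15. FANCC changed by -1.27 ± 0.10, -0.999 ± 0.10 and -1.32 ± 0.10, FANCF by -1.05 ± 0.17, -0.82 ± 0.16 and -0.74 ± 0.16, and FANCG by -0.64 ± 0.14, -1.34 ± 0.14 and -0.93 ± 0.14. FANCM, the anchor that finds the crosslink, had -0.43 ± 0.11 in sgCtl, and its adjusted p of 0.00416 (edgeR) rose to between 0.0104 and 0.0238 without any sgCtl library other than hypoxia replicate 3. In the KD clones FANCM changed by -0.81 ± 0.11 and -1.03 ± 0.11. FANCE missed the threshold in sgCtl (-0.55 ± 0.21, adjusted p = 0.0387 by edgeR) and fell in sgXIST7 (-1.51 ± 0.22) and sgXIST9 (-0.85 ± 0.21), the last call being lost without sgXIST9 hypoxia replicate 3 or normoxia replicate 2 (0.0142 and 0.0103). FANCB and FANCL, the catalytic subunit, were not called in any clone, with log2 fold changes from -0.53 to 0.07.

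FANCI and FANCD2 were among the genes with the largest falls. FANCI was at 194, 195 and 194 CPM in sgCtl normoxia and 44.3, 40.8 and 73.3 in hypoxia. In sgXIST7 it went from 157, 154 and 161 to 33.9, 33.8 and 39.97 CPM and in sgXIST9 from 166, 160.2 and 160.2 to 33.6, 27.9 and 31.9. The fall was 3.70-fold, 4.39-fold and 5.21-fold (edgeR, adjusted p = 1.01e-07, 1.34e-08 and 6.32e-09). FANCD2 was 2.37-fold, 2.99-fold and 3.14-fold lower. BRIP1, the helicase bound to BRCA1, fell by 3.67-fold in sgCtl, 1.57-fold in sgXIST7 and 2.51-fold in sgXIST9, and its sgXIST7 call was lost without hypoxia replicate 1 or 2 or normoxia replicate 1 or 3 of that clone (edgeR, adjusted p = 0.0123 to 0.0282). SLX4, the scaffold of the unhooking nucleases, and ERCC4 (XPF), one of those nucleases, were not called in any clone, at 0.35, -0.15 and -0.10 for SLX4 and -0.05, -0.27 and -0.35 for ERCC4.

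The 3 genes of the competing routes went different ways. POLQ, the polymerase of microhomology-mediated end joining, went from 115, 134 and 115 to 51.0, 46.2 and 48.7 CPM in sgCtl and was 2.49-fold, 3.68-fold and 3.63-fold lower in the 3 clones. PARP1 was at 275, 256.0 and 268 CPM and 218, 228 and 190.2 CPM in sgCtl (-0.33 ± 0.12, adjusted p = 0.0269 by edgeR, not called) and fell in sgXIST7 (-0.90 ± 0.12) and sgXIST9 (-0.65 ± 0.12). TP53BP1 was at 106, 113 and 102 CPM in sgCtl normoxia and 158, 159 and 133 in hypoxia, higher in each hypoxic library but not called (0.49 ± 0.15, adjusted p = 0.0111 by edgeR). In sgXIST9 it rose (0.55 ± 0.15, adjusted p = 0.00480 by edgeR), a call lost without any sgXIST9 library other than hypoxia replicate 3 (0.0154 to 0.0259), and in sgXIST7 its value was 0.05 ± 0.15.

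Promoters of the 39 genes were read from RefSeq (GRCh38.p14, 250 bases before to 50 after the start), which held 36 of them in 48 entries and not FANCI, NBN and RAD54B. Each was searched on both strands for the E2F letters TTTCCCGC, TTTGGCGC, TTTCGCGC and TTTGCCGC, the core HIF letters ACGTG and the CHR letters TTTGAA. E2F factors are known to drive genes of S phase, HIF to drive genes in low oxygen, and CHR elements to mark genes of G2 and mitosis. E2F letters were in 12.5% of the 48 entries, those of DMC1, EXO1, FANCA, FANCC, FANCD2 and XRCC2, and in 3.31% of all 35116 entries. HIF letters were in 20.8% against 21.4%, and CHR letters in 8.33% against 15.2%. Of the 9 genes with HIF letters 6 fell in all 3 clones, as did 3 of the 4 with CHR letters. All 6 genes with E2F letters fell in all 3 clones, where 26 of all 39 members did. The share of all genes with such letters that fell was not computed, so these counts have no baseline. The part of the letters in these falls was not tested. The 4 genes with E2F letters nearest to the start site, 6 bases before to 21 bases after it, are shown 5′ to 3′. Their E2F letters, or the reverse complement, are in capitals. A match describes the letters and not a bound site.
EXO1 (chr1:241847954-241848253, plus strand): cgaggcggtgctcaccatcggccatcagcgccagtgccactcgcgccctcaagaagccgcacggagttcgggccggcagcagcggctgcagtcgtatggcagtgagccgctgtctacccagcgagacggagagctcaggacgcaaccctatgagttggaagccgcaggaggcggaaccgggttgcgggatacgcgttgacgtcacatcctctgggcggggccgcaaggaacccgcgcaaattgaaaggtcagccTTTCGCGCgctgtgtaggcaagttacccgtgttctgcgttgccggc
FANCD2 (chr3:10026187-10026486, plus strand): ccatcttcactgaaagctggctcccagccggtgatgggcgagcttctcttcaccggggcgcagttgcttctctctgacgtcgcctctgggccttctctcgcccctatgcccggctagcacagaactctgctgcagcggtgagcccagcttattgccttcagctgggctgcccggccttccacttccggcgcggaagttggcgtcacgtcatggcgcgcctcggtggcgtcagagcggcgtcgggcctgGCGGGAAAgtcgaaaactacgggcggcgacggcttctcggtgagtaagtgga
XRCC2 (chr7:152676092-152676391, minus strand): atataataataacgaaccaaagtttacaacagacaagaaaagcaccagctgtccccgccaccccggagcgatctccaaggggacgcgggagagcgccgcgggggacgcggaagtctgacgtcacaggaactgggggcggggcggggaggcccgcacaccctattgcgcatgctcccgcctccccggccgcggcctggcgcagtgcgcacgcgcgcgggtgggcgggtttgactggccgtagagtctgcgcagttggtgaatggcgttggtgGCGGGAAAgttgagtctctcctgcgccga
DMC1 (chr22:38570134-38570433, minus strand): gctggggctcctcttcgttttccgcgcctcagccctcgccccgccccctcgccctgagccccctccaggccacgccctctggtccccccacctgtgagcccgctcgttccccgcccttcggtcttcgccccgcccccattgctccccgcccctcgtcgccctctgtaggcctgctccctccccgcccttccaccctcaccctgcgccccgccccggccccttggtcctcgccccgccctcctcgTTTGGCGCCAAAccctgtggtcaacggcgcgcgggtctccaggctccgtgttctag

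Genes of DNA replication and division fell with them. Of 32 other genes of S phase, 27, 30 and 31 fell in sgCtl, sgXIST7 and sgXIST9, with medians of -1.27, -1.94 and -1.84 on the log2 scale, and all 20 mitosis genes tested fell in each clone, with medians of -1.39, -2.05 and -2.25. These medians lie below those of the repair genes in the same clone. The summed level of the S phase genes went from a median of 4671 to 1929 CPM in sgCtl, from 4029 to 1090 CPM in sgXIST7 and from 4566 to 1386 CPM in sgXIST9, while that of the 39 repair genes went from 2871 to 1694, from 2442 to 1253 and from 2613 to 1403 CPM. The part of these genes' fall in that of the repair genes was not tested.

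Outside the 39, 44 other genes of homologous recombination and the Fanconi pathway showed 18, 24 and 22 falls and 4, 3 and 2 rises in sgCtl, sgXIST7 and sgXIST9, with medians of -0.52, -0.65 and -0.54. UBE2T, the conjugating enzyme that acts with the Fanconi ligase, had the largest called change in sgCtl (-2.03), and fell in sgXIST7 (-2.44) and sgXIST9 (-2.15). DNA2, a resection nuclease, changed by -1.80, -2.03 and -1.89. BRCC3, the deubiquitinase of the BRCA1-A complex, rose in each clone, by 1.61, 1.78 and 1.38. Among 13 genes of end joining, 7 fell and 1 rose in each clone. LIG3, a ligase of alternative end joining, changed by -1.09, -1.51 and -1.32, and the gene that rose was APLF, at 0.87, 1.16 and 0.97. As a check of the treatment, 13, 14 and 14 of 15 hypoxia-induced genes rose, with medians of 3.5, 3.62 and 3.14.

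**Figure D3:**
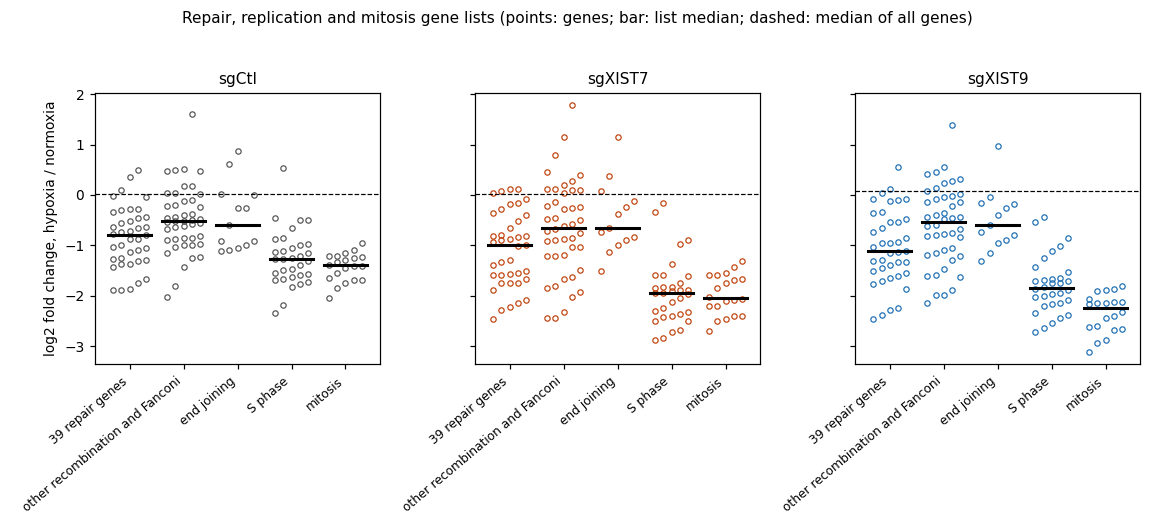
Log2 fold change of hypoxia against normoxia (y axis) for the 39 repair genes and 4 other gene lists in each clone, with a point per gene, a bar at the list median and a dashed line at the median of all genes tested. The bars of the repair genes (-0.80, -0.999 and -1.11) lie between those of the other recombination and Fanconi genes and those of the S phase and mitosis genes in each clone.

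In normoxia 9 of the 39 repair genes were called between sgXIST7 and sgCtl, and 4 between sgXIST9 and sgCtl. In sgXIST7 8 of 39 were lower and 1 higher, against 6.10% and 7.39% of all genes. In sgXIST9 3 were lower and 1 higher, against 6.60% and 6.51%. For sgXIST9 the number of lower genes depended on the test. It was 6 by DESeq2, against 8.35% of all genes, and 9 in a fit of only the groups compared, against 15.9%. The summed markers of other cell types were at 2.35 to 6.05 CPM in sgXIST7 and 2.41 to 3.13 CPM in sgXIST9, against 0.919 to 1.14 CPM in sgCtl. Of these markers only COL1A1 was above 13 counts in any library. Their part in these differences was not tested. The comparisons with sgCtl share the sgCtl libraries, so their values are given side by side only. The medians were -0.21 and -0.12, and those of all genes -0.01 and -0.02.

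XRCC2, a strand exchange factor, differed most. It stood at 76.8, 77.2 and 87.0 CPM in sgCtl normoxia, 29.7, 22.4 and 28.0 in sgXIST7 and 66.8, 69.2 and 70.9 in sgXIST9. The sgXIST7 libraries were 3.004-fold below sgCtl (edgeR, adjusted p = 2.04e-06), and sgXIST9 was at -0.22 ± 0.16 and not called (0.379). Compared directly in normoxia, sgXIST7 was 2.58-fold below sgXIST9 (-1.37 ± 0.16, adjusted p = 2.15e-05 by edgeR). XRCC2 was the single gene of the 39 called in that comparison, where 2.04% of all genes were lower and 2.93% higher in sgXIST7.

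BARD1 was lower in both clones. Its normoxic level was 126, 127 and 125 CPM in sgCtl, 82.6, 77.1 and 72.0 in sgXIST7 and 72.3, 66.7 and 67.2 in sgXIST9, with no overlap with sgCtl (-0.71 ± 0.08, adjusted p = 8.00e-06, and -0.88 ± 0.08, adjusted p = 6.92e-07 by edgeR). NBN was higher in both, at 58.8, 57.0 and 54.6 CPM in sgCtl, 90.8, 64.3 and 84.3 in sgXIST7 and 104, 90.5 and 107 in sgXIST9. Its call in sgXIST9 was firm (0.83 ± 0.12, adjusted p = 9.86e-05 by edgeR), and that in sgXIST7 (adjusted p = 0.00812) was lost without any library of sgCtl or sgXIST7 normoxia but sgXIST7 replicate 2 (0.0233 to 0.0527).

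RBBP8 (-0.78 ± 0.11), DMC1 (-1.17 ± 0.23), ATR (-0.51 ± 0.10) and FANCB (-0.81 ± 0.20) were lower in sgXIST7. ATM was at -0.54 ± 0.09 in sgXIST7 and -0.38 ± 0.09 in sgXIST9, and TP53BP1 at -0.61 ± 0.15 and -0.66 ± 0.15, both called in both clones. The sgXIST9 call of ATM (0.00527 by edgeR) was lost without each library in turn (0.0142 to 0.0383), as was that of FANCB in sgXIST7 (0.0161 to 0.0279). TP53BP1 lost its sgXIST7 call without any library but sgXIST7 replicate 2 (0.0145 to 0.0344), and its sgXIST9 call without any but sgCtl replicate 3 (0.0115 to 0.0169). BRCA1 was at -0.47 ± 0.14 and -0.29 ± 0.14 and BRCA2 at 0.46 ± 0.15 and 0.01 ± 0.15, none called (edgeR, adjusted p from 0.0253 to 0.979). The medians of the S phase genes were -0.20 and -0.04, and those of the mitosis genes -0.11 and -0.04.

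**Figure D4:**
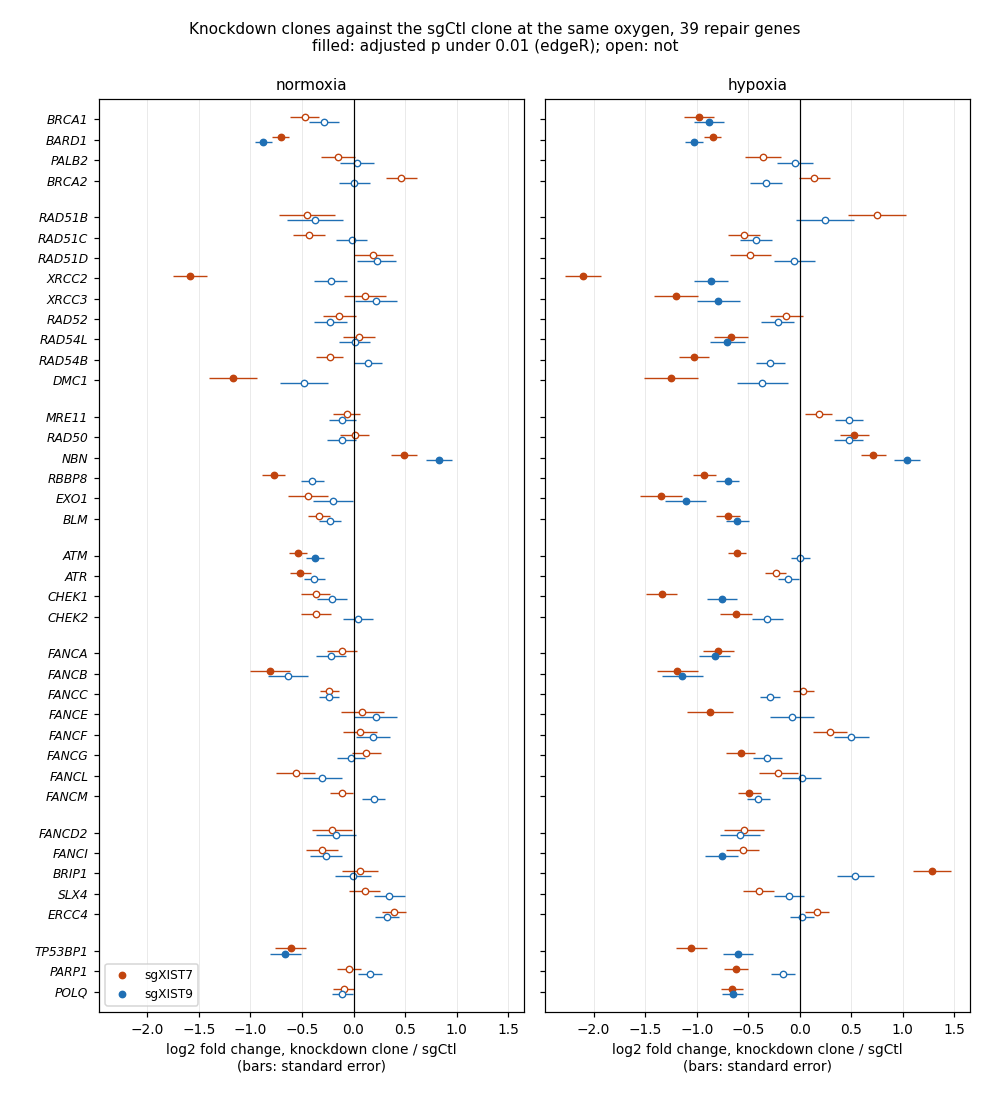
Log2 fold change of sgXIST7 and sgXIST9 against sgCtl (x axis) for the 39 genes in normoxia (left) and hypoxia (right), with standard errors as bars and filled points for an adjusted p under 0.01. Filled points are fewer in normoxia (9 for sgXIST7 and 4 for sgXIST9) than in hypoxia (24 and 15), and most of them lie left of 0.

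In hypoxia more of the repair genes were lower in the KD clones than in sgCtl. In sgXIST7 21 of 39 were lower and 3 higher, against 13.7% and 13.9% of all genes. In sgXIST9 14 were lower and 1 higher, against 8.24% and 9.65%. The medians were -0.57 and -0.31, and those of all genes -0.02 and -0.01. In a fit of only the groups compared, 9 were lower and 1 higher in sgXIST7, and 1 lower and 1 higher in sgXIST9, where 3.81% and 1.73% of all genes were lower. Lower levels of the S phase genes (24 and 13 of 32) and of the mitosis genes (15 and 18 of 20) stood beside them. The part of those genes in this difference was not tested, and neither was that of the summed markers of other cell types, at 2.24 to 3.13 CPM in sgXIST7 and 3.85 to 8.49 CPM in sgXIST9, against 0.438 to 1.54 CPM in sgCtl. Among these markers only COL1A1 was above 0.593 CPM in any library.

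XRCC2 was again at the far end in sgXIST7, with 11.8, 8.11 and 10.8 CPM against 44.9, 41.6 and 45.5 in sgCtl, 4.31-fold lower (edgeR, adjusted p = 1.18e-07). In sgXIST9 it was at 26.8, 28.2 and 17.2 CPM (-0.87 ± 0.17, adjusted p = 7.40e-04 by edgeR). EXO1 was 2.55-fold lower in sgXIST7 and 2.16-fold in sgXIST9, and CHEK1 2.53-fold and 1.69-fold. BRCA1 stood at 76.8, 63.4 and 97.1 CPM in sgCtl hypoxia, 44.1, 36.1 and 40.3 in sgXIST7 and 52.0, 40.5 and 36.4 in sgXIST9, without overlap (-0.98 ± 0.15, adjusted p = 6.97e-05, and -0.88 ± 0.15, adjusted p = 2.29e-04 by edgeR). The sgXIST9 calls of XRCC2, EXO1, CHEK1 and BRCA1 were lost in a fit of only the groups compared (edgeR, adjusted p = 0.0209 to 0.0302). Their sgXIST7 calls held there. BARD1 was at -0.85 ± 0.09 and -1.02 ± 0.09, close to its values in normoxia.

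FANCB (-1.19 ± 0.20 and -1.14 ± 0.20), XRCC3 (-1.20 ± 0.21 and -0.79 ± 0.21), FANCA (-0.79 ± 0.15 and -0.82 ± 0.15), RBBP8 (-0.93 ± 0.11 and -0.70 ± 0.11) and TP53BP1 (-1.05 ± 0.15 and -0.60 ± 0.15) were lower in both clones. So were RAD54L, BLM and POLQ, between -0.70 and -0.60. DMC1 (-1.25), RAD54B (-1.03), FANCE (-0.87), CHEK2, PARP1, ATM, FANCG and FANCM (the last at -0.49) were called lower in sgXIST7, and FANCI (-0.76) in sgXIST9. FANCI stood at -0.55 in sgXIST7, just short of the threshold (edgeR, adjusted p = 0.0106).

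Under every alternative other than the fold threshold 10 of the 24 sgXIST7 calls and 2 of the 15 sgXIST9 calls held, the latter BARD1 and NBN. All the others were lost in a fit of only the groups compared (edgeR, adjusted p = 0.0111 to 0.0770 in sgXIST7 and 0.0148 to 0.103 in sgXIST9). Several were also lost when a single library was left out, with their direction kept. Without sgXIST7 hypoxia replicate 2 the sgXIST7 calls of CHEK2, DMC1, FANCE, FANCG, FANCM and RAD54L were lost (edgeR, adjusted p = 0.0104 to 0.0276), and without any 1 of sgCtl hypoxia replicates 1 to 3 or sgXIST7 hypoxia replicate 3 some of CHEK2, FANCE, FANCG and RAD54L were lost (0.0101 to 0.0289). The sgXIST9 calls of RAD54L, TP53BP1 and XRCC3 were lost without sgCtl hypoxia replicate 1 (0.0154 to 0.0256) or sgXIST9 hypoxia replicate 3 (0.0226 to 0.0342). Without sgCtl hypoxia replicate 2 those of TP53BP1 and XRCC3 were lost (0.0217 and 0.0409), without sgXIST9 hypoxia replicate 1 those of RAD54L and XRCC3 (0.0152 and 0.0293), and without its replicate 2 that of TP53BP1 (0.0101).

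The genes that went the other way were NBN, BRIP1 and RAD50. NBN was 1.64-fold higher in sgXIST7 and 2.06-fold in sgXIST9, at 82.5, 76.2 and 68.9 and 96.7, 96.5 and 92.3 CPM against 52.5, 43.6 and 42.5 in sgCtl. BRIP1 was 2.44-fold higher in sgXIST7 (1.28 ± 0.18, adjusted p = 3.69e-05 by edgeR), and RAD50 was 1.44-fold higher there (0.53 ± 0.14, adjusted p = 0.00660 by edgeR). Its call was lost without sgCtl hypoxia replicate 1 or 2 or sgXIST7 hypoxia replicate 3 (0.0242 to 0.0483).

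The difference in the hypoxia response itself was tested as an interaction. Of the 39 genes, 1 responded more strongly and 1 less strongly in sgXIST7 than in sgCtl, where 0.984% of all genes had a lower and 1.18% a higher value. BRIP1 stood at 113, 106 and 103 CPM in sgCtl normoxia and 32.3, 20.5 and 35.0 in hypoxia, and at 119, 104 and 111 and 58.1, 64.7 and 90.6 in sgXIST7. Its normoxic levels overlapped, while in hypoxia the sgXIST7 libraries all lay above those of sgCtl. The difference was 1.23 ± 0.25 on the log2 scale (edgeR, adjusted p = 0.00855). CHEK1 fell further in sgXIST7, with a difference of -0.97 ± 0.21 (0.00971). Both calls were lost when a library other than hypoxia replicate 3 of sgCtl or replicate 1 of sgXIST7 was left out, at 0.0106 to 0.0326. Leaving out that sgCtl library gave 4 called genes of the 39, and leaving out that sgXIST7 library gave 6. The shares of all genes in these fits were not computed, so the counts have no baseline. In sgXIST9 0 of the 39 were called by edgeR, where 0.502% of all genes were lower and 0.756% higher. At an unadjusted p under 0.05 there were 17 of the 39, against 21.5% of all genes. DESeq2 called 3, all lower, against 2.64% of all genes. BRIP1 and CHEK1 were at 0.55 ± 0.25 and -0.55 ± 0.20 there.

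**Figure D5:**
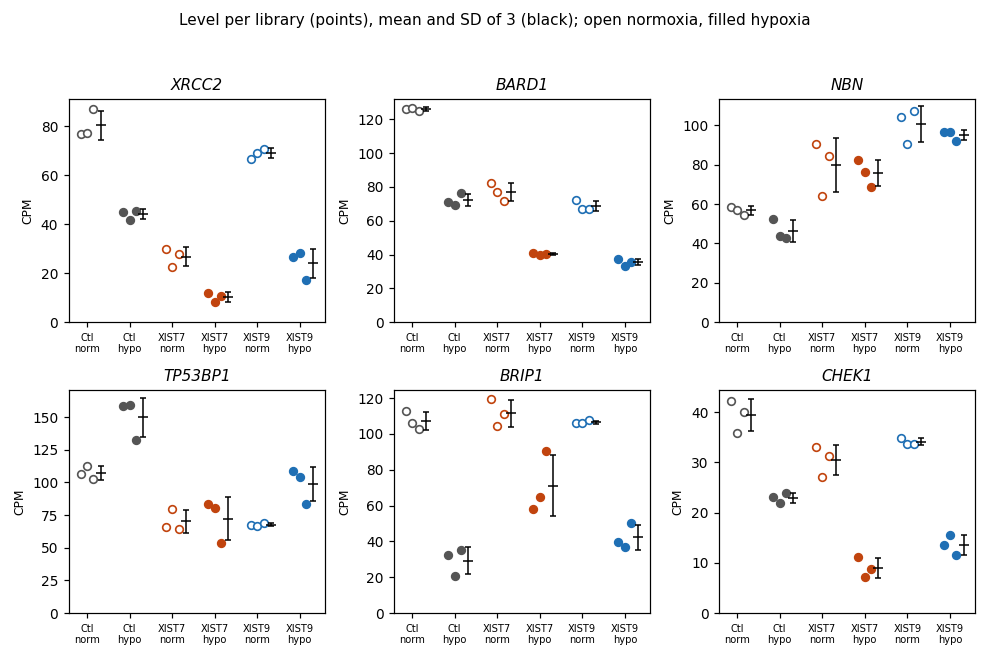
CPM (y axis, from 0) of 6 of the genes whose levels differed between clones, in each of the 18 libraries, as open points for normoxia and filled points for hypoxia, with the mean and SD of 3 in black. XRCC2 is lowest in sgXIST7 at both oxygen levels, BARD1 is below sgCtl and NBN above it in both KD clones, and hypoxic BRIP1 is highest in sgXIST7.

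Some counts cannot be assigned with certainty. Exon bases shared with a gene on the other strand made up 28.4% of TP53BP1 (with TUBGCP4), 25.4% of FANCL (VRK2), 22.9% of FANCA (ZNF276) and 8.80% of FANCI (POLG). The kit marks strand, but the strand setting of the counting is not stated in the sources used here. In 33 of the 39 genes at least 95% of 50-base windows of exon occur in the genome a single time, and the lowest shares were those of CHEK2 (89.5%), FANCD2 (91.0%) and DMC1 (92.1%).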

How the data were processed

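RNA of 18 libraries was sequenced after rRNA depletion with a stranded kit. Per the study's methods, the authors used Trimmomatic for trimming, HISAT2 for alignment (hg38) and featureCounts for counts per gene, and the deposited values are whole-number counts without normalization. The table has 28279 lines, of which 2 broken ones with 0 counts were left out. Positions are those of the file (hg38).

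A single fit of 6 groups (edgeR 4.0.16, R 4.3.3: TMM factors, filterByExpr with minimum counts of 10 and 15, glmQLFit with robust estimation, glmQLFTest) kept 14938 genes. P-values were adjusted over all of them by Benjamini-Hochberg, at a threshold of 0.01. Standard errors come from the fold change and its F statistic. Alternatives were DESeq2 1.42.0, other factors and filters, a replicate block, a fit of only the groups compared, a fold threshold and libraries left out. Members, lists and tests were chosen with earlier results of these data known. Full values are given for up to 10 called members with the largest changes in a comparison, the others by counts and range or briefly by role, and up to 4 called genes are named of each other list.

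Same-numbered libraries deviated together (every r above 0.1) in sgXIST7 against sgCtl in normoxia, at 0.148 to 0.379, and in sgXIST9 against sgCtl in hypoxia, at 0.197 to 0.566. In the other comparisons not every r was above 0.1, with values from 0.00254 to 0.380. Each library's highest r was with its own number in sgXIST7 against sgCtl in normoxia and in hypoxia against normoxia in sgCtl. This did not hold for every library in the remaining comparisons, sgXIST9 against sgCtl in hypoxia among them. With 3 replicates a group an exact permutation test of a single gene cannot go below p = 0.1 and is not used for calls.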

Additional observations from a re-analysis of the deposited data

Results flagged for a closer look

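Both genes of the 39 whose response to hypoxia differed between sgXIST7 and sgCtl by the interaction test are listed here for that reason. CHEK1 fell by more in sgXIST7, with a difference of -0.97 ± 0.21 on the log2 scale (edgeR, adjusted p = 0.00971), and the call was lost under upper-quartile factors (0.0111) and without a filter beyond 1 count (0.0123). BRIP1 fell by less, with a difference of 1.23 ± 0.25 (edgeR, adjusted p = 0.00855). In a fit of only the 4 groups compared neither was called (0.0282 for CHEK1 and 0.0254 for BRIP1). Each lost its call when any 1 library of these groups was left out other than sgCtl hypoxia replicate 3 or sgXIST7 hypoxia replicate 1.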

How the results depend on the processing

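Over all alternatives other than the fold threshold, 1842 of 2014 values of called genes kept their direction and call, 172 kept the direction and lost the call, and 0 reversed. DESeq2, RLE factors and the replicate block lost 0 of 144 calls each, and a fit of only the groups compared lost 37. Against sgCtl in normoxia such a fit called more members than the main fit in sgXIST7 and sgXIST9 (12 and 11, from 9 and 4). In hypoxia it called fewer (10 and 2, from 24 and 15). With the replicate block 30, 30 and 31 members were called in hypoxia in sgCtl, sgXIST7 and sgXIST9, 10 and 6 in the KD clones in normoxia, 26 and 16 in hypoxia, 1 between the KD clones, and 2 and 0 in the interactions. Shifts of the all-gene median under other scalings stayed between -0.05 and 0.09.

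A fold threshold left 16 (sgCtl) and 19 (sgXIST7) members called in hypoxia, 2 and 0 in sgXIST7 and sgXIST9 against sgCtl in normoxia, 9 and 4 in hypoxia, and 1 in the sgXIST7 interaction. DESeq2 called 7 in sgXIST9 in normoxia, 2 between the KD clones, and 7 and 3 in the sgXIST7 and sgXIST9 interactions, and upper-quartile factors called 1 in the first interaction. Only the groups compared gave 11 in sgXIST9 in normoxia, 10 and 2 in sgXIST7 and sgXIST9 in hypoxia, 3 between the KD clones and 0 in the sgXIST7 interaction. Without the 3 hypoxia libraries numbered 3, the interactions gave 10 and 1. Leaving out each library in turn gave 2 to 3 in sgXIST9 in normoxia and 0 to 6 in the sgXIST7 interaction. For most counts under these alternatives the share of all genes was not computed, so they are not read as results about the members. The cause of the changes in count was not tested.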
